A study of Mus musculus with 35 samples.

Results

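Serum response factor (Srf) and a set of smooth-muscle contractile genes were followed in NMuMG cells over 7 d under TGF-β, with and without an inhibitor of the kinase JNK. The set was fixed by symbol as Srf, Tagln, Acta2, Actg2, Cnn1, Myl9, Tpm1, Tpm2, Csrp1 and Csrp2, and all 10 symbols were found among the 20261 genes of the inhibitor table. NMuMG is an established line of mouse mammary gland epithelial cells that loses epithelial features and gains mesenchymal ones under TGF-β, a change called epithelial-mesenchymal transition (EMT). The 20 RNA libraries used here came from wild-type cells labelled NmuMG, strain E9, and formed 2 arms, one given the solvent DMSO and the other given a JNK inhibitor whose compound name the labels leave out (JNKi). Each arm was sampled at 24, 48, 72 and 96 h and at 7 d with 2 libraries per arm and time. The protocol attached to all libraries describes TGF-β at 2 ng/ml, renewed with the medium at intervals, while the treatment label of each library names DMSO or JNKi alone. The 15 libraries of a separate TGF-β time course were not analysed here. The labels do not say that libraries of a group came from separate cultures, so the p-values below measure the spread between these libraries, which may be technical.

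SRF is a transcription factor that binds the CArG box, a short A/T-rich element flanked by C and G pairs, and reads out the state of the actin cytoskeleton. When actin polymerizes, its coactivators MRTF-A and MRTF-B (genes Mkl1 and Mkl2) leave monomeric actin, enter the nucleus and join SRF at genes for contractile and cytoskeletal proteins. Signals through MAP kinases use other SRF partners, the ternary complex factors Elk1, Elk3 and Elk4, at immediate-early genes such as Fos and Egr1. Smooth-muscle α-actin and SM22α (products of Acta2 and Tagln) are widely used marks of cells that have become contractile, including myofibroblasts and epithelial cells under TGF-β. JNK phosphorylates c-Jun and so acts on AP-1, another factor of the TGF-β response.

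Promoter sequence was examined for the CArG box because it is the element that SRF binds. RefSeq promoter windows (build GRCm38.p6) were at hand for 7 of the 10 members, and Tagln, Actg2 and Csrp2 had no entry. Within the 250 bases before the RefSeq start, the CArG box (both strands, since the motif reads alike on each) was found in 2 of the 7 members, Srf and Myl9. Across all 32851 promoter windows of that length, 1.47% held one. A variant with 1 G or C among the 6 core bases was found in 7.24% of windows, and either form in 8.59%. The Srf window held 2 boxes whose first bases lie 82 and 62 bases before the start, and the Myl9 window held a box at 161 and a variant at 99 bases. The Acta2 window held no full box but 2 variants, CCCTATATGG at 84 and CCTTGTTTGG at 34 bases before the RefSeq start. These windows are shown for Srf and Myl9, whose levels over time are given below, without the bases that GENCODE M21 places in the first exon. They run 5′ to 3′ on the strand of the gene, with full and variant boxes in capitals, from chr17:46556176-46556412 (minus strand) for Srf and chr2:156775214-156775419 (plus strand) for Myl9 in GRCm38.p6.
Srf: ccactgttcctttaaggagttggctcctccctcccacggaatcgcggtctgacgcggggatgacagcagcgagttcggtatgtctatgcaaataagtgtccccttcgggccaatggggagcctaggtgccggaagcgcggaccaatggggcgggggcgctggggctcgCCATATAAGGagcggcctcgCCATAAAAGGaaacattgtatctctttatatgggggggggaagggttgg
Myl9: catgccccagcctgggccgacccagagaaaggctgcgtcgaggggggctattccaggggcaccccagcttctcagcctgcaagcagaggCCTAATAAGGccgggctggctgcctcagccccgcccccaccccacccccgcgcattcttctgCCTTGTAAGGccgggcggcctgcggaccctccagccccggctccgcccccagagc
A match describes these letters, and neither binding nor a role in the changes below was measured.

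Library depth ranged from 9492324 recovered reads (JNKi 7 d, replicate 1) to 48584027 (DMSO 72 h, replicate 1), with a median of 29163362. The deposited values are normalized reads, and each library's values were whole multiples of the worth of 1 read, so whole reads could be recovered. Of 8 epithelial markers, Cdh1, Krt8, Krt18, Krt19 and Ocln were read in all 20 libraries, whereas Epcam was at 0 in 15 and Cldn3 and Cldn7 never exceeded 2.4 and 4.3 normalized reads. Summed over the 8 markers, the epithelial level went from 11320 to 11433 RPM (recovered reads of a library scaled to a total of 1000000) in DMSO at 24 h to 4681 to 6014 at 7 d, and was 3858 to 4025 in JNKi at 7 d. Markers of other cell types had lower sums, which were higher in DMSO at 7 d than at 24 h. The 6 myoepithelial or basal markers summed to 5.9 to 9.33 RPM at 24 h and 14.4 to 18.1 at 7 d in DMSO, and to 18.5 to 20.1 in JNKi at 7 d. Of these, Krt5, Krt14 and Kcnmb1 reached 307, 225 and 375 normalized reads, and Trp63 was at 0 in 9 libraries. Kcnmb1 averaged 0 normalized reads at 24 h and 324 at 7 d in DMSO, and 2.5 and 170 in JNKi. It is also among the mature smooth muscle genes below, so this sum is not separate from that list. The 8 fibroblast or pericyte markers went from 24.4 to 25.9 RPM up to 67.6 to 71.2 in DMSO and stood at 68.5 to 79.2 in JNKi at 7 d, carried by Col1a1 and Pdgfrb, with Thy1 at 0 in 15 libraries and Dcn in 14. The 6 leukocyte markers went from 3.24 to 4.89 RPM up to 7.96 to 10.3 and stood at 12.3 to 13.9 in JNKi at 7 d, with Cd68 read in all 20 libraries, Emr1 at 0 in 17 and Cd3e in 15. The 5 endothelial markers went from 1.95 to 3.0 RPM up to 10.9 to 12.5 and stood at 15.6 to 16.1 in JNKi at 7 d, with Cdh5 read in all 20 libraries and Emcn at 0 in 15. These sums were higher at 7 d than at 24 h, as were the members described below, and their part in those results was not tested. In these bulk libraries, fewer cells expressing a gene and less of its RNA per cell cannot be told apart.

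Contractile transcripts accumulated strongly over the week in DMSO. Tests used limma on log2(normalized reads + 1) over the 13896 genes whose mean reached 10 in some group, and a gene passed at a Benjamini-Hochberg adjusted p under 0.05. A fold change on this scale understates the change of genes with few reads. Tpm2 stayed below the minimum, so 9 members could be tested. Myl9 reached it in the 7 d groups alone, so its rise to 7 d, counted below, gives no support of its own. All 9 rose from 24 h to 7 d in DMSO, where 32.0% of all genes tested rose and 59.9% changed. With Myl9 entered at its lower bound (see its values below), the median of the 9 log2 differences was 3.11, against 0.06 over all genes. Already at 48 h, 7 of the 9 had risen above 24 h (14.7% of all genes), and at 72 h all 9 had (24.0%). From 72 to 96 h in DMSO, 5 members fell (Acta2, Cnn1, Csrp1, Csrp2 and Tpm1), where 20.8% of all genes fell, and none rose. From 96 h to 7 d, 8 members rose (21.0% of all genes), all but Srf. In the JNKi arm, 8 of the 9 rose from 24 h to 7 d (31.7% of all genes), all but Csrp2, with a median of 2.26 on the same reckoning. The JNKi arm had 7 members above 24 h at 48 h (10.9%), 7 lower at 96 h than at 72 h (17.3%) and 6 higher and 1 lower (Srf) at 7 d than at 96 h (23.2% and 16.6%).

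**Figure D1:**
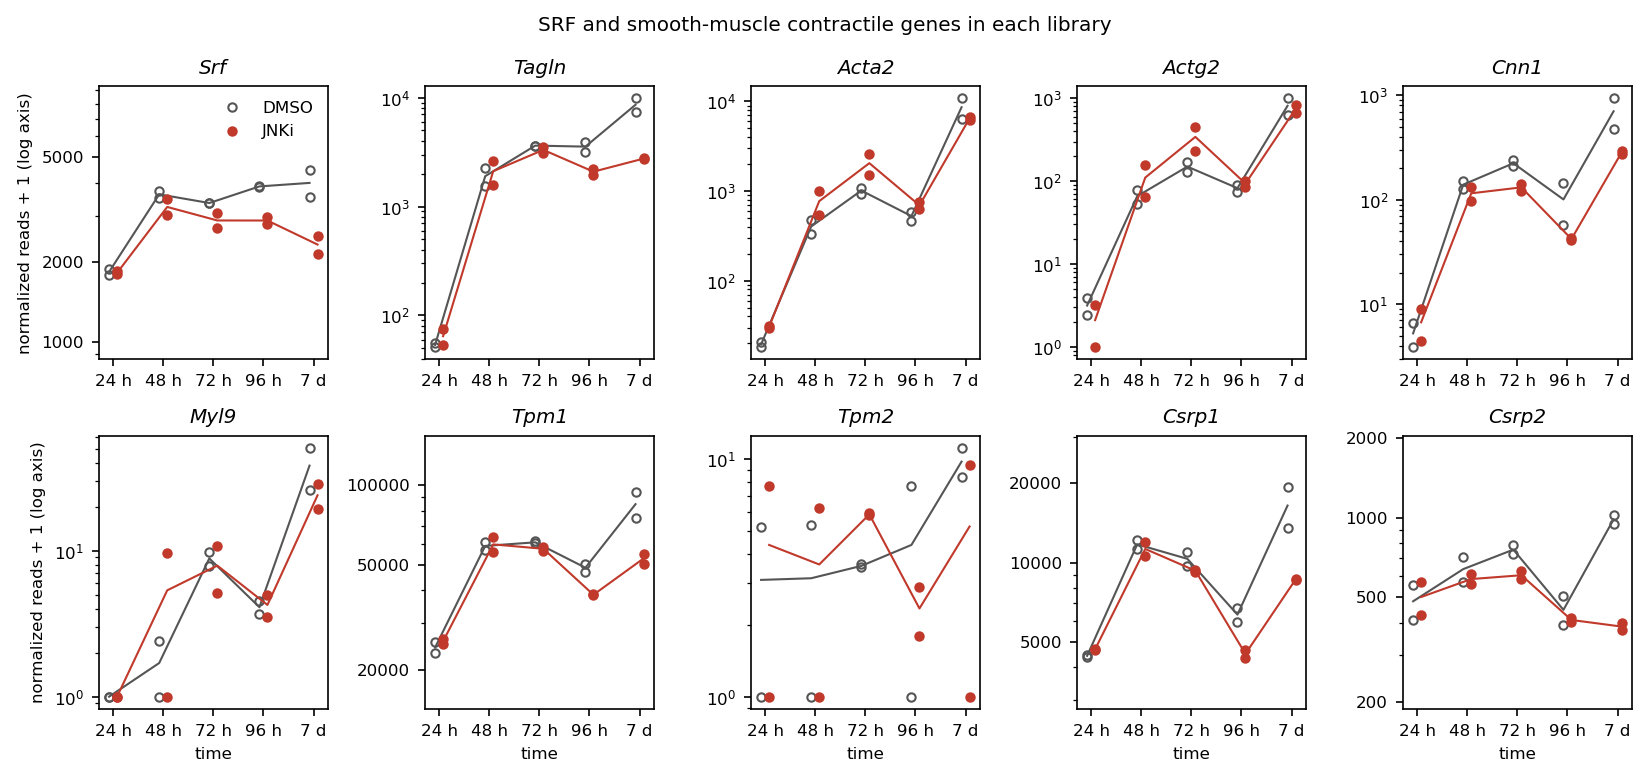
Normalized reads + 1 (log axis) of the 10 members in each library at 24, 48, 72 and 96 h and 7 d, with open grey circles for DMSO, filled red circles for JNKi and lines through the mean of the 2 libraries. Tagln, Acta2, Actg2 and Cnn1 climb from below 100 normalized reads at 24 h, Tpm2 stays at or below 10.1, and at 7 d Srf, Tagln, Cnn1, Tpm1, Csrp1 and Csrp2 have both JNKi libraries below both DMSO libraries.

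JNKi was set against DMSO at each time to ask which of these genes move with JNK inhibition. At 7 d, 5 of the 9 tested members fell under JNKi (Tagln, Csrp2, Csrp1, Srf and Tpm1) and none rose. Of all genes tested, 5.33% fell and 10.2% changed, which is 673 higher and 741 lower (567 and 959 with TMM scaling). The median of the 9 log2 differences was -0.77, against 0.02 over all genes. The summed epithelial markers were also lower in JNKi at 7 d (3858 to 4025 against 4681 to 6014 RPM), and their part in this result was not tested. At 24, 48, 72 and 96 h no member passed in limma without a replicate block. The unadjusted limma p was under 0.05 for 1, 1, 2 and 5 of the 9 members at these times. Of all 13896 genes tested, 610, 521, 1125 and 677 were under that threshold. edgeR also passed no member, while DESeq2 passed 2, at 96 h, where it passed 34 of all genes. With a block for the replicate number within each time, limma passed Acta2 at 72 h (higher) and Srf, Tagln and Csrp1 at 96 h (lower). It then passed 334 and 99 of all genes at these 2 times. Without that block, few genes of any kind passed in limma at 24, 48, 72 and 96 h: 0.0%, 0.0%, 0.072% and 0.0072% of all tested. Both JNKi libraries lay below both DMSO libraries for 0, 1, 6, 5 and 6 of the 9 members at 24, 48, 72 and 96 h and 7 d, where 12.3%, 15.3%, 18.1%, 19.7% and 26.2% of all genes did. They lay above for 2, 1, 2, 1 and 0 members, where 14.7%, 13.8%, 18.3%, 19.7% and 32.0% of all genes did. The members' median moved from 0.08 at 24 h and 0.02 at 48 h to -0.15 at 72 h and -0.34 at 96 h.

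**Figure D2:**
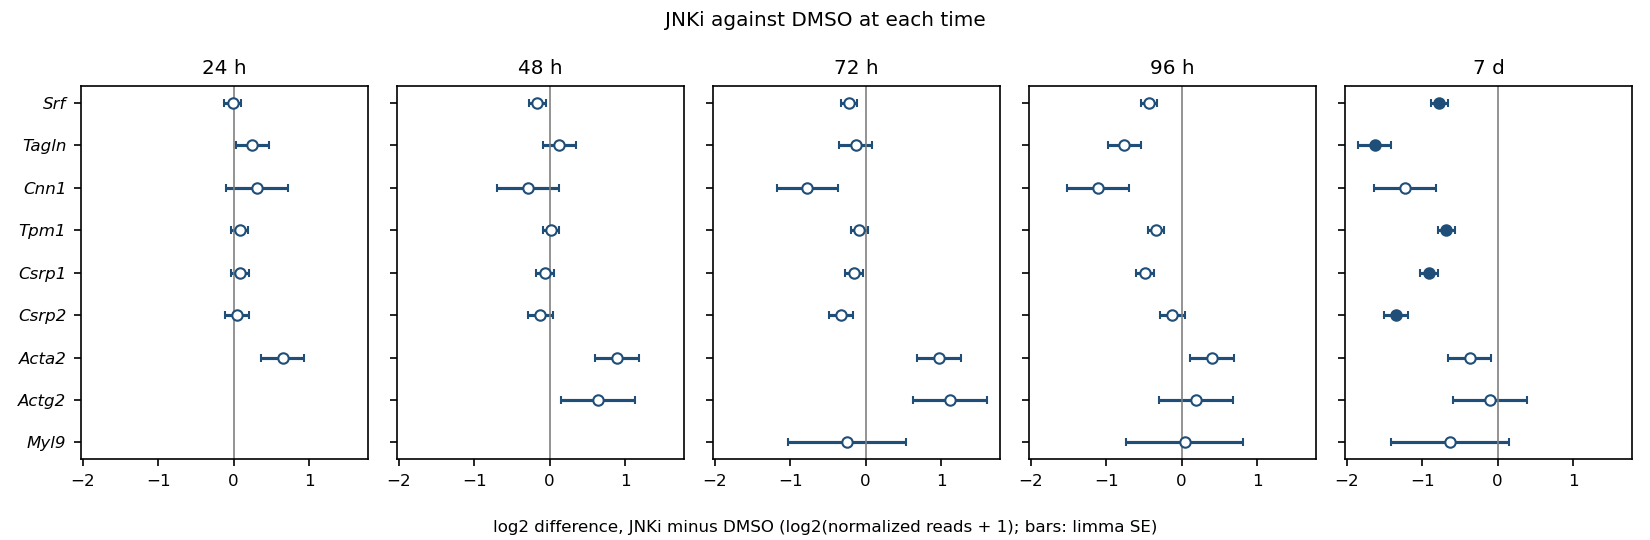
Difference between JNKi and DMSO on the log2(normalized reads + 1) scale for the 9 tested members at each time, with bars for the limma standard error and filled circles for an adjusted p under 0.05. Acta2 lies above 0 from 24 to 96 h, while filled circles appear at 7 d alone, for Srf, Tagln, Tpm1, Csrp1 and Csrp2. Actg2 at 24 h and Myl9 at 24 and 48 h are left out, since groups there were near 0 reads. Cnn1 at 24 h and Myl9 from 72 h on are shown and also rest on few reads.

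Srf itself (chr17:46548329-46556175, minus strand, GRCm38) rose early in both arms and was lower under JNKi at 7 d. In DMSO it was read at 1789 and 1884 normalized reads (24 h), 3501 and 3734 (48 h), 3342 and 3366 (72 h), 3886 and 3869 (96 h), and 3535 and 4462 (7 d). In JNKi the values were 1798 and 1845 (24 h), 3012 and 3469 (48 h), 2697 and 3062 (72 h), 2795 and 2961 (96 h), and 2141 and 2525 (7 d). Thus the DMSO level stayed near its 48 h value, whereas both JNKi libraries lay below both DMSO libraries from 48 h on. The JNKi difference was -0.43 ± 0.11 (log2, SE) at 96 h, with an adjusted p of 0.373 in limma and 0.0329 in DESeq2. At 7 d Srf fell under JNKi by 0.77 ± 0.11 on the log2 scale (limma adjusted p = 0.000402), lower in 2 of 2 libraries. Against 24 h, Srf at 7 d was up by 1.11 ± 0.11 in DMSO and 0.35 ± 0.11 in JNKi (limma adjusted p = 3.24e-07 and 0.0102), and the JNKi call was lost without JNKi 7 d replicate 2 (adjusted p = 0.14). Between 96 h and 7 d, Srf in JNKi fell by 0.31 (limma adjusted p = 0.031), a call lost without either JNKi 96 h library (0.0658 and 0.167) or JNKi 7 d replicate 1 (0.283). The same step in DMSO was 0.03 ± 0.11.

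Tagln (chr9:45929619-45936058, minus strand), which encodes the actin-binding protein SM22α, had the largest fall of the members under JNKi at 7 d. In DMSO its values were 54.8 and 50.5 normalized reads (24 h), 1551 and 2244 (48 h), 3621 and 3625 (72 h), 3162 and 3926 (96 h), and 7360 and 9821 (7 d). In JNKi they were 74.2 and 52.7 (24 h), 1579 and 2638 (48 h), 3081 and 3536 (72 h), 1947 and 2228 (96 h), and 2798 and 2704 (7 d). The arms overlapped at 24 and 48 h, and the JNKi libraries were the lower ones from 72 h. At 7 d Tagln was 0.324 of its DMSO level, a log2 difference of -1.63 ± 0.22 (95% interval -2.09 to -1.17, limma adjusted p = 0.000282). At 96 h the difference was -0.76 ± 0.22 and did not pass (limma adjusted p = 0.519). In DMSO, Tagln rose from 96 h to 7 d by 1.27 ± 0.22 on the log2 scale (limma adjusted p = 0.00037), whereas the same step in JNKi was 0.40 ± 0.22 (0.153, or 0.000371 when the 2 groups were fitted alone). Ordered by mean, DMSO 7 d (8591 ± 1740, SD, n = 2) stood highest, followed by DMSO 72 h (3623), DMSO 96 h (3544), JNKi 72 h (3308), JNKi 7 d (2751), JNKi 48 h (2108), JNKi 96 h (2088) and DMSO 48 h (1897). The steps from DMSO 72 h down to JNKi 72 h, and from JNKi 7 d down to DMSO 48 h, were smaller than the spread within their groups. JNKi 24 h (63.5 ± 15.2, SD, n = 2) and DMSO 24 h (52.6 ± 3.04, SD, n = 2) were lowest and also within that spread of each other.

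Acta2 (chr19:34241090-34255590, minus strand), the gene for smooth-muscle α-actin, took a different course. Its DMSO values were 19.7 and 17.3 normalized reads (24 h), 328 and 476 (48 h), 934 and 1091 (72 h), 466 and 584 (96 h), and 6408 and 10808 (7 d). The JNKi values were 30.4 and 28.8 (24 h), 536 and 1007 (48 h), 1514 and 2582 (72 h), 758 and 627 (96 h), and 6144 and 6791 (7 d). Both JNKi libraries were above both DMSO libraries at 24, 48, 72 and 96 h, and the arms overlapped at 7 d. The log2 differences were 0.65, 0.89, 0.97 and 0.40 from 24 to 96 h (each ± 0.29, SE), with limma adjusted p of 1.0, 1.0, 0.306 and 1.0, so none passed. At 7 d the difference was -0.37 ± 0.29 (95% interval -0.98 to 0.25, limma adjusted p = 0.448), and it was 0.01 without DMSO 7 d replicate 2. In both arms Acta2 rose over the week, by 8.74 ± 0.29 in DMSO and 7.72 ± 0.29 in JNKi on the log2 scale (limma adjusted p = 1.96e-12 and 2.96e-11). It also fell between 72 and 96 h in both (-0.95 in DMSO and -1.52 in JNKi, limma adjusted p = 0.0163 and 0.00104). Of the 1986 windows of 50 bases in its transcript, 7 (0.4%) also occur in another gene, among them Actg1, so reads of these stretches could be shared. The other 9 members shared none.

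The parting of Tagln and Acta2 under JNKi appears in their ratio within each library. In DMSO, log2(Tagln + 1) minus log2(Acta2 + 1) was 1.43 and 1.49 (24 h), 2.24 and 2.24 (48 h), 1.95 and 1.73 (72 h), 2.76 and 2.75 (96 h), and 0.20 and -0.14 (7 d). In JNKi it was 1.26 and 0.85 (24 h), 1.56 and 1.39 (48 h), 1.02 and 0.45 (72 h), 1.36 and 1.83 (96 h), and -1.13 and -1.33 (7 d). The JNKi libraries had the lower ratio at all 5 times, with no overlap. JNKi minus DMSO was -0.41 ± 0.29 (24 h), -0.76 ± 0.12 (48 h), -1.10 ± 0.43 (72 h), -1.16 ± 0.33 (96 h) and -1.26 ± 0.28 (7 d), where the error is the SD of the difference and n = 2 in each arm. These ratios are a description with no test, since the pair was singled out with its course known. The JNKi minus DMSO log2 differences for Acta2 were 0.65, 0.89, 0.97, 0.40 and -0.37 from 24 h to 7 d. For Tagln they were 0.25, 0.13, -0.13, -0.76 and -1.63. Of these, Tagln at 7 d alone passed in limma without a replicate block. With a block for the replicate number within each time, Acta2 at 72 h (higher, limma adjusted p = 0.00751) and Tagln at 96 h (lower, 0.00693) passed too. At 7 d both genes had a lower mean in JNKi, Tagln by more, and the arms overlapped for Acta2.

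**Figure D3:**
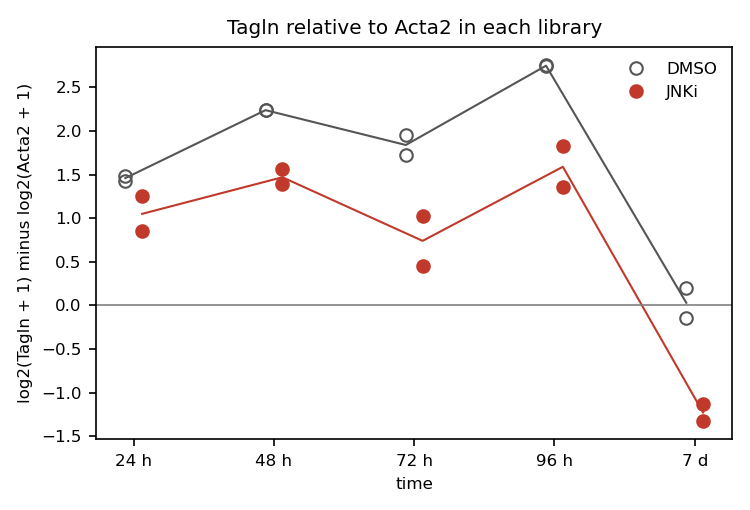
Tagln relative to Acta2, as log2(Tagln + 1) minus log2(Acta2 + 1), in each library by time, with open grey circles for DMSO, filled red circles for JNKi and lines through the means. The JNKi libraries lie below the DMSO libraries at all 5 times, with a mean difference of -0.41 at 24 h and -1.26 at 7 d, and the ratio of both arms is lowest at 7 d.

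Actg2 (chr6:83512905-83536265, minus strand), the gene for smooth-muscle γ-actin, had arms that did not overlap at 72 h alone. In DMSO it was read at 1.4 and 2.9 normalized reads (24 h), 52.5 and 76.9 (48 h), 128 and 169 (72 h), 73.6 and 88.7 (96 h), and 624 and 993 (7 d). In JNKi the values were 2.2 and 0 (24 h), 64 and 154 (48 h), 229 and 452 (72 h), 99.8 and 84.8 (96 h), and 657 and 825 (7 d). JNKi lay above DMSO at 72 h, where the log2 difference was 1.12 ± 0.49 (limma adjusted p = 0.551). At 7 d it was -0.10 ± 0.49 (95% interval -1.12 to 0.93, limma adjusted p = 0.922), and it turned to 0.24 without DMSO 7 d replicate 2 and to 0.07 without JNKi 7 d replicate 1. Actg2 rose over the week in both arms. Since the 24 h groups held 3 and 2 reads, the ratio of 7 d to 24 h is given with its counting interval, 416 (142 to 2020) in DMSO and 599 (166 to 4950) in JNKi. These intervals cover counting error only.

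Cnn1 (chr9:22099216-22109630, plus strand) encodes calponin, which binds actin and slows the actomyosin ATPase. Its DMSO values were 5.6 and 2.9 normalized reads (24 h), 152 and 125 (48 h), 208 and 237 (72 h), 143 and 56.7 (96 h), and 471 and 933 (7 d). The JNKi values were 3.4 and 8 (24 h), 131 and 97.1 (48 h), 142 and 119 (72 h), 41.7 and 40.4 (96 h), and 272 and 293 (7 d). JNKi was the lower arm without overlap at 72 h, 96 h and 7 d. The log2 difference was -0.77 ± 0.41 at 72 h, -1.11 ± 0.41 at 96 h and -1.23 ± 0.41 at 7 d. None passed, and the limma adjusted p at 7 d was 0.0648, against 0.0122 in edgeR and 0.00228 in DESeq2. The limma call at 7 d was also made without either DMSO 96 h library (0.0368 and 0.0361) or either JNKi 24 h library (0.0473 and 0.0478). Over the week Cnn1 rose in both arms, 188-fold (86.0 to 512) in DMSO and 54.7-fold (27.6 to 127) in JNKi by its read ratio and counting interval.

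Tpm1 (chr9:67022590-67049406, minus strand), a tropomyosin that lies along the actin filament, changed less in fold. Its DMSO values were 25391 and 23111 normalized reads (24 h), 56634 and 61231 (48 h), 61263 and 60367 (72 h), 50445 and 46979 (96 h), and 75280.0 and 94493 (7 d). In JNKi they were 26189.6 and 25056 (24 h), 55888 and 63566 (48 h), 58487 and 56462 (72 h), 38617 and 38303 (96 h), and 55097 and 50521 (7 d). The arms overlapped at 24 and 48 h and were apart from 72 h, with JNKi below. At 7 d Tpm1 fell under JNKi by 0.68 ± 0.11 on the log2 scale (limma adjusted p = 0.0015), and at 96 h the difference was -0.34 ± 0.11 (0.77). Tpm1 was up at 7 d over 24 h by 1.80 ± 0.11 in DMSO and 1.04 ± 0.11 in JNKi (limma adjusted p = 3.17e-09 and 1.52e-06). Tpm2 (chr4:43514711-43523765, minus strand), the β-tropomyosin gene, was close to absent, with 77 reads over all 20 libraries, 0 to 12 per library and none in 6. Its normalized reads were 0 to 10.1 in DMSO and 0 to 8.4 in JNKi, so a difference was not detectable at this depth.

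Csrp1 and Csrp2 encode cysteine-rich LIM proteins that bind actin-bundling partners and, in the nucleus, act with SRF and GATA factors. Csrp1 (chr1:135720061-135752232, plus strand) was read in DMSO at 4381 and 4468 normalized reads (24 h), 11227 and 12213 (48 h), 10975 and 9682 (72 h), 6744 and 5939.5 (96 h), and 13548 and 19351 (7 d). In JNKi the values were 4671 and 4704 (24 h), 10598 and 11920 (48 h), 9395 and 9224 (72 h), 4659 and 4343 (96 h), and 8670 and 8568 (7 d). JNKi lay slightly above at 24 h and below from 72 h, with no overlap. Under JNKi at 7 d Csrp1 fell by 0.91 ± 0.12 on the log2 scale (limma adjusted p = 0.000314). At 96 h the difference was -0.49 ± 0.12, with an adjusted p of 0.373 in limma and 0.0231 in DESeq2. Csrp1 rose from 24 h to 7 d by 1.87 ± 0.12 in DMSO and 0.88 ± 0.12 in JNKi (limma adjusted p = 5.41e-09 and 1.97e-05).

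Csrp2 (chr10:110919789-110939622, plus strand) was the member whose rise over the week was seen in DMSO and not called in JNKi. Its DMSO values were 409 and 552 normalized reads (24 h), 567 and 707 (48 h), 786 and 725 (72 h), 389 and 503 (96 h), and 944 and 1023 (7 d). The JNKi values were 427 and 570 (24 h), 557 and 611 (48 h), 582 and 625 (72 h), 402 and 414 (96 h), and 397 and 374 (7 d). At 7 d the JNKi libraries were the lowest of the JNKi arm and the DMSO libraries the highest of the DMSO arm. The JNKi difference at 7 d was -1.35 ± 0.16 on the log2 scale, 0.392 of the DMSO level (limma adjusted p = 0.000142). From 24 h to 7 d, Csrp2 rose by 1.05 ± 0.16 in DMSO (limma adjusted p = 4.79e-05). The same step in JNKi was -0.36 ± 0.16 (0.0702), and it spanned -0.57 to -0.15 with 1 library left out. This fall in JNKi passed with TMM scaling (-0.41, limma adjusted p = 0.0354) and with a replicate block over all times (-0.36, 0.0319).

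Myl9 (chr2:156775420-156781658, plus strand), the smooth-muscle regulatory myosin light chain, was read rarely, with 187 reads over all 20 libraries. In DMSO it was at 0 and 0 normalized reads (24 h), 0 and 1.4 (48 h), 6.9 and 8.8 (72 h), 2.7 and 3.5 (96 h), and 25.2 and 49.3 (7 d). The JNKi values were 0 and 0 (24 h), 0 and 8.7 (48 h), 4.1 and 9.7 (72 h), 2.5 and 4 (96 h), and 27.7 and 18.2 (7 d). The arms overlapped at all 5 times, and at 7 d the log2 difference was -0.63 ± 0.78 (limma adjusted p = 0.645). Myl9 was higher at 7 d than at 24 h in both arms (limma adjusted p = 3.45e-05 and 0.000128). It reached the minimum mean of 10 through its 7 d groups alone (37.2 in DMSO and 22.9 in JNKi). Whether it was tested thus depended on these high values, and its p-values for a rise to 7 d are not separate support. With 3 reads per library taken as the floor at 24 h, it was at least 8.61-fold higher in DMSO and at least 4.79-fold higher in JNKi at 7 d. Its calls for 7 d over 96 h did not hold without DMSO 7 d replicate 2 (limma adjusted p = 0.0674) in DMSO, nor in JNKi without JNKi 96 h replicate 1, JNKi 96 h replicate 2 or JNKi 7 d replicate 1 (0.102, 0.0541 and 0.11).

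Whether the JNKi difference itself changed over the week was tested as an interaction, the difference at 7 d less that at 24 h. It was lower at 7 d for 5 members, where 1.3% of all genes were lower and 2.1% changed. The values were -1.87 ± 0.31 for Tagln, -1.41 ± 0.23 for Csrp2, -0.99 ± 0.17 for Csrp1, -0.76 ± 0.15 for Srf and -0.76 ± 0.16 for Tpm1 (limma adjusted p = 0.00569, 0.0057, 0.00792, 0.0171 and 0.0232). Acta2 gave -1.02 ± 0.41 (0.212) and Cnn1 -1.54 ± 0.58 (0.183), which did not pass, and Actg2 and Myl9 have no usable value because their 24 h groups were near 0. Without JNKi 24 h replicate 1, Srf and Tpm1 were lost (0.0552 and 0.0873), and likewise without JNKi 7 d replicate 1 (0.101 and 0.0669). Tpm1 was also lost without DMSO 24 h replicate 2 (0.108) or JNKi 7 d replicate 2 (0.09). With the 4 groups fitted alone, Srf, Tpm1 and Csrp1 did not pass (0.0855, 0.109 and 0.0528). Against 72 h in place of 24 h, no member's interaction passed in limma (Tagln -1.49 ± 0.31, adjusted p = 0.0571), where 0.18% of all genes did. There, 6 of the 9 had an unadjusted limma p under 0.05, where 1984 of all 13896 genes did. edgeR passed 1 of the 9 and DESeq2 passed 5, and their counts over all genes are not given here.

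The members' courses over the 10 group means were alike to differing degrees, given here as Pearson r with no test, since groups share arms and times. Acta2 and Actg2 had r = 0.99, Tagln and Cnn1 0.94, and Tagln and Acta2 0.92. Srf ran closer to Tagln (0.86) and Tpm1 (0.85) than to Acta2 (0.63) or Myl9 (0.46). Csrp2 was the least like the actins (0.33 with Acta2 and 0.31 with Actg2). Outside the set, the 5 genes most like Tagln were Adc, Pdlim5, Fgd3, Adam15 and Ldb3 (each 0.99 over 10 group means). Ldb3, a Z-disc LIM protein, stood at 6.35 normalized reads in DMSO and 4.95 in JNKi at 24 h, and at 685 and 375 at 7 d. Its JNKi difference at 7 d was -0.86 ± 0.29 on the log2 scale and did not pass (limma adjusted p = 0.0709). Most like Acta2 were Dnajb4, Asb5 and 1700009N14Rik (0.99) and Srgap3 and Ccpg1 (0.98), of which 3 stayed among the closest 5 with a pseudocount of 8. Dnajb4, a heat-shock cochaperone, went from 752 to 2520.0 normalized reads in DMSO and from 786 to 2510.0 in JNKi between 24 h and 7 d.

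Cytoskeletal genes known as SRF and MRTF targets, none of them members, included 14 of 24 tested that fell under JNKi at 7 d and none that rose, where 5.33% of all genes fell. The 24 had a median of -0.39 on the log2 scale, against 0.02 over all genes. Filip1l, a filamin-interacting protein, fell by 0.98 ± 0.15, and Zyx, the focal adhesion protein zyxin, fell by 0.85 ± 0.09 (limma adjusted p = 0.000739 and 5.04e-05). The nonmuscle myosin heavy chain gene Myh9 and the filamin gene Flna, the most read of the list, gave -0.21 ± 0.12 and -0.38 ± 0.12 and did not pass (0.263 and 0.0517). The count of 14 became 8 without DMSO 7 d replicate 2 and 7 without either JNKi 7 d library. In DMSO from 24 h to 7 d, 15 of the 24 rose and 4 fell (1 without DMSO 7 d replicate 1), where 32.0% of all genes rose and 28.0% fell. Those that rose include Myh10, up from 6.4 to 89.9 normalized reads, and Tgfb1i1 (Hic-5), which is listed as 0 in both 24 h libraries and averaged 9.95 at 7 d. Myh9 and Flna rose by 0.49 and 0.55.

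Of 12 SRF partners and regulators tested, 1 was higher and 1 lower under JNKi at 7 d, where 4.84% of all genes were higher and 5.33% lower, so the list's count is near that of all genes. Fhl2, a LIM-only cofactor, fell by 0.89 ± 0.13 (limma adjusted p = 0.000718), from 7970.0 normalized reads in DMSO to 4290.0 in JNKi. Elk4 rose by 0.49 ± 0.15 (0.0441), a call lost with TMM scaling and without any 1 of the 4 libraries at 7 d, and Mkl1 gave -0.22 ± 0.10 (0.158). From 24 h to 7 d in DMSO, 8 rose and 3 fell (1 without DMSO 7 d replicate 2), where 32.0% and 28.0% of all genes did, with Fhl1 up by 3.05 ± 0.43, Phactr1 by 1.48 ± 0.32 and Fhl2 by 0.86 ± 0.13. Mkl1 gave 0.16 ± 0.10 there.

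Most genes listed for mature smooth muscle rose over the week without a called JNKi difference in limma. The list also holds skeletal α-actin (Acta1) and the Z-disc gene Ldb3. In DMSO, 11 of 13 tested were higher at 7 d than at 24 h and none were lower, where 32.0% of all genes were higher. Kcnmb1, a potassium channel subunit, is listed as 0 in both 24 h libraries and averaged 324 normalized reads at 7 d, and Acta1, skeletal α-actin, went from 39.1 to 6140.0. Smtn (smoothelin), the most read of the list, gave 0.15 ± 0.08. Between JNKi and DMSO at 7 d none of the 13 passed in limma, and edgeR and DESeq2 each passed 3. Over all 13896 genes, limma passed 1414, edgeR 1589 and DESeq2 1581. The unadjusted limma p was under 0.05 for 4 of the 13, and for 3690 of all genes. Acta1 gave -1.11 ± 0.36 (limma adjusted p = 0.0578) and Smtn -0.15 ± 0.08 (0.234).

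Of 10 immediate-early genes controlled through ternary complex factors, none rose and 4 fell from 24 h to 7 d in DMSO, where 28.0% of all genes fell. Without DMSO 7 d replicate 2, 2 of the 10 fell. The log2 difference was -3.45 ± 0.84 for Fos, -1.19 ± 0.36 for Dusp6 and -0.63 ± 0.18 for Junb, which passed, and -0.13 ± 0.09 for Mcl1, which did not. Under JNKi at 7 d, Nr4a1 passed in limma and the other 9 did not, higher by 0.65 ± 0.18 (limma adjusted p = 0.0272), and Junb and Mcl1 gave -0.27 ± 0.18 and 0.09 ± 0.09. Leaving out DMSO 7 d replicate 1 or JNKi 7 d replicate 1 removed the Nr4a1 call. At 72 and 96 h none of the 59 genes of the 4 lists passed against DMSO in limma. Of the 59, 6 and 13 had an unadjusted limma p under 0.05, where 1125 and 677 of all 13896 genes did. edgeR passed none of the 59, and 15 and 1 of all genes. DESeq2 passed 2 and 6 of the 59, and 105 and 34 of all genes.

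**Figure D4:**
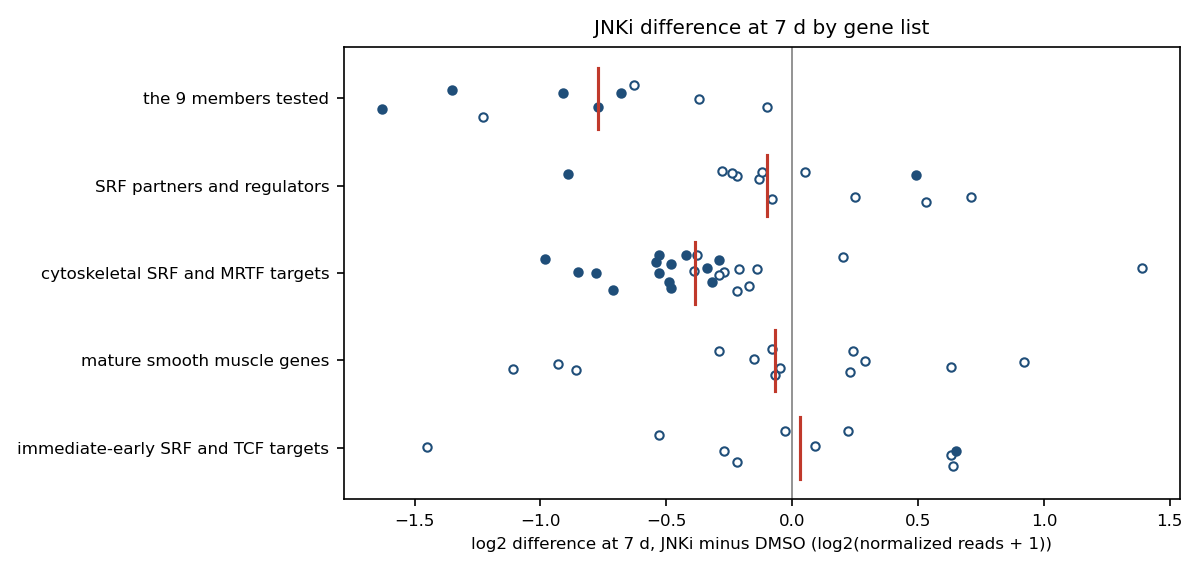
Difference between JNKi and DMSO at 7 d on the log2(normalized reads + 1) scale for the 9 tested members and the 4 gene lists, 1 circle per gene (placed vertically at random within its row), filled for an adjusted p under 0.05, with a red bar at each median. The members' median lies at -0.77 and that of the cytoskeletal targets at -0.39, while the medians of the SRF partners (-0.10), mature smooth muscle genes (-0.07) and immediate-early genes (0.03) lie nearer 0.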

How the data were processed

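RNA from 20 libraries of NMuMG cells (DMSO and JNKi, 5 times, 2 libraries per group) had been sequenced. The submitters' processing notes name TopHat, HTSeq, DESeq and build mm9, without versions; strand use in counting is not given in the sources used here. The deposited values are read counts per gene divided by a factor for each library, a normalized signal made by the authors. Every value above 0 came within 0.1 of a whole read after division by that library's step (100.0% in each library), so reads were recovered for depth, intervals, edgeR and DESeq2.

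The values were set on a log2 scale from the deposited signal with a pseudocount of 1 and fitted with an intensity trend (limma 3.58.1 under R 4.3.3), 1 mean per arm and time over all 20 libraries, for the 13896 genes whose mean reached 10 in some group, and p-values were adjusted over all of these (threshold 0.05). Alternatives were pseudocounts of 0.5 and 8, no minimum and a minimum of 50, TMM and upper quartile scaling, no trend, robust variances, a block for the replicate number, the compared groups alone, edgeR 4.0.16 (quasi-likelihood) and DESeq2 1.42.0 on recovered reads, and leaving out each library. Fits were tested on simulated data.

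The members, lists and tests were chosen with earlier results of these data known, so they are not independent of them. All 10 members are named, and from each list the 2 genes with the largest called change and the 2 with the highest mean, for JNKi against DMSO at 7 d and DMSO 7 d against 24 h. Genes most like Tagln or Acta2 are the 5 with the highest Pearson r over the 10 group means among genes with a group mean of at least 50. Genes in the text chosen after their values were seen are Epcam, Cldn3, Cldn7, Krt5, Krt14, Trp63, Col1a1, Pdgfrb, Thy1, Dcn, Cd68, Emr1, Cd3e, Cdh5 and Emcn among the markers. Promoters come from RefSeq (GRCm38.p6) and gene positions from GENCODE M21 (GRCm38), not from mm9. The time course table of 15 libraries was not used here. 1 further list of genes is not reported here.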

Additional observations from a re-analysis of the deposited data

Results flagged for a closer look

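The difference between JNKi and DMSO changed from 24 h to 7 d for 5 members by a test of the change itself (limma interaction). It was lower at 7 d by -1.87 on the log2 scale for Tagln, -1.41 for Csrp2, -0.99 for Csrp1, -0.76 for Srf and -0.76 for Tpm1. Over all genes, 1.3% were lower by this interaction. Each of these 5 genes had 2 of 2 JNKi libraries below both DMSO libraries at 7 d, as did 26.2% of all genes. The interaction used these same values, so they add no separate support. With the compared groups fitted alone, Srf, Tpm1 and Csrp1 did not pass (limma adjusted p = 0.0855, 0.109 and 0.0528).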

How the results depend on the processing

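The JNKi calls at 7 d numbered 5 to 6 when any 1 library was left out, the sixth being Cnn1. The calls for 7 d against 24 h numbered 9 in DMSO and 7 to 9 in JNKi, and for 7 d against 96 h 7 to 8 in DMSO and 5 to 7 in JNKi. The interaction calls, 5 as reported, numbered 3 to 5 with a library left out and 2 with the 4 groups fitted alone. At 96 h, 2 members passed with DESeq2. At 24 to 72 h no member passed with any library left out. The replicate numbers were not taken as pairs, since the correlation did not hold at every time: the deviations of same-numbered libraries correlated between arms at 0.73, 0.59, 0.72 and 0.53 from 24 to 96 h and at 0.07 at 7 d (9605 genes with a mean of at least 200). With the replicate block within each time, 1 member passed at 72 h (Acta2, higher, limma adjusted p = 0.00751) and 3 at 96 h (Srf 0.00777, Tagln 0.00693 and Csrp1 0.0203, all lower), 6 at 7 d, Acta2 in the interaction (-1.02, 0.0104), and 3522 genes at 7 d against 1414. Over all genes, the 7 d count was 378 without DMSO 7 d replicate 1, 367 without JNKi 7 d replicate 1, 589 without JNKi 7 d replicate 2 and 1509 without DMSO 7 d replicate 2. The 72 h count of 10 was 105 with DESeq2, 334 with that block, 4 with no minimum, 2 with no trend, 0 with the groups alone and 0 without DMSO 72 h replicate 1 or JNKi 72 h replicate 2. The 96 h count of 1 was 34 with DESeq2 and 99 with that block. The interaction count of 292 was 512 with DESeq2, 89 with the groups alone, 138 with no trend, 1741 with that block, 457 with a block over all times, and 59 (without JNKi 7 d replicate 1) to 557 (without DMSO 7 d replicate 2) with a library left out. The cause of these shifts was not tested.

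Differences that passed in no limma fit turned sign with 1 library left out. Their ranges were -0.05 to 0.03 for Srf, -0.21 to 0.83 for Cnn1 and -0.16 to 0.27 for Csrp2 at 24 h. At 48 h they were -0.24 to 0.50 for Tagln, -0.08 to 0.11 for Tpm1, -0.14 to 0.03 for Csrp1 and -0.28 to 0.04 for Csrp2. Myl9 spanned -0.79 to 0.28 at 72 h and -0.22 to 0.29 at 96 h, and Csrp2 -0.30 to 0.07 at 96 h. At 7 d Acta2 spanned -0.74 to 0.01 and Actg2 -0.43 to 0.24, and Srf in DMSO from 96 h to 7 d -0.13 to 0.20. With 1 library left out, the Tagln to Acta2 gap spanned -0.61 to -0.20 at 24 h and -1.43 to -1.09 at 7 d. Its sign could not change, since the arms did not overlap in this ratio at any time. Few reads limit Myl9 and Tpm2 at all times, and Actg2 and Cnn1 at 24 h.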
